A study of Rattus norvegicus with 9 samples.

Results

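Ribosome biogenesis and nucleolar genes were followed in cultured smooth muscle cells of the rat aorta, which make up the contractile layer of that vessel. The genes were chosen by name: symbols made of Utp, Nop, Rrp, Nol or Exosc and a number, the RNA polymerase I subunits Polr1 with a letter, and 13 further genes (Ncl, Npm1, Fbl, Ddx21, Bop1, Pes1, Wdr12, Dkc1, Nhp2, Gar1, Imp3, Imp4 and Mphosph10). The rule found 65 genes of the 32623 in the table, under 64 symbols, because Nol8 stood on 2 rows. Of the 65, 62 reached 1 FPKM (fragments per kilobase of exon, scaled to library size) in 3 or more of the 9 libraries and were tested. The other 3 were Nol4, listed at 0 in every library, Nol4l with a highest FPKM of 0.76, and the second Nol8 row with a highest FPKM of 0.18. The label held for most of them: the deposited annotation placed 50 of the 65 (76.9%) in the nucleolus, against 5.70% of all tested genes. Nol3, an apoptosis repressor, and Nol4 were matched by name only.

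RNA-seq libraries were deposited for 3 groups of 3. The PDGF-BB+PTUPB cells were pretreated for 2 h with 0.5 µM PTUPB, an inhibitor of both cyclooxygenase-2 and soluble epoxide hydrolase, and then given platelet-derived growth factor BB (PDGF-BB), a mitogen of smooth muscle cells, for 24 h. The PDGF-BB cells received the growth factor alone, and the Control cells received DMSO. The dose of PDGF-BB was 10 ng/mL in the sample labels and 20 ng/mL in the series design. The genotype of all 9 libraries was given as WT, all cells were of passages 4 to 8, were grown in 20% serum, went 12 h without serum and were treated in 2% serum. Nothing in the labels states that the libraries within a group came from different animals or cultures; the p-values rest on the spread among libraries, and that spread may be technical.

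Ribosomes are built mostly in the nucleolus, where RNA polymerase I transcribes the ribosomal RNA precursor. Small nucleolar ribonucleoprotein particles (snoRNPs) modify that precursor, the small subunit processome and the large subunit assembly factors cut and fold it, and the RNA exosome trims its ends and degrades the spacers. Growing cells need many new ribosomes, and mitogens such as PDGF-BB are known to drive ribosome synthesis in cultured cells.

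The stretches upstream of 7 members are shown as examples. Fbl, Nop10, Polr1c, Exosc2 and Exosc8 were called higher with PDGF-BB and lower again with PTUPB. Ddx21 and Utp20 were called lower with PDGF-BB, but lost these calls in 14 of 21 and 16 of 20 alternative fits. Nol8 and Nop53, called lower with PDGF-BB and higher with PTUPB, are not shown. Each is the 250 bases before the annotated start of the gene, 5′ to 3′ on the strand of the gene, from RefSeq on the build GRCr8. Capitals mark CGGAAG or its reverse complement CTTCCG, the core of sites bound by ETS family factors, and CACGTG, the E-box bound by MYC and its partners.
Fbl, GRCr8 chr1:92597157-92597406, plus strand: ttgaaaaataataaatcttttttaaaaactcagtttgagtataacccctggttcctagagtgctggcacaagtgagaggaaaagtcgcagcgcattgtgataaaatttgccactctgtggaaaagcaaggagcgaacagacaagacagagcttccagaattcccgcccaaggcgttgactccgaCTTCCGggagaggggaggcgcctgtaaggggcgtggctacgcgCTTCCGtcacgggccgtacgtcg
Nop10, GRCr8 chr3:119521005-119521254, plus strand: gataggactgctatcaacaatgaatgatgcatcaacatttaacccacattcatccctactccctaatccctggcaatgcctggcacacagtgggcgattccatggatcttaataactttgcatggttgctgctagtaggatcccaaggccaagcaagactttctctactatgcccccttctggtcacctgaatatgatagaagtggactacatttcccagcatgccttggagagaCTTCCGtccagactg
Polr1c, GRCr8 chr9:22233068-22233317, plus strand: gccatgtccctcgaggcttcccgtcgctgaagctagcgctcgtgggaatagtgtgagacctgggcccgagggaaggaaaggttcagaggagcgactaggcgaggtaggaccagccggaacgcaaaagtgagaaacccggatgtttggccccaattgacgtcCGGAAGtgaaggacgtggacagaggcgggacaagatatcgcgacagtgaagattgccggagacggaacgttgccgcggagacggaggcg
Exosc2, GRCr8 chr3:35360416-35360665, plus strand: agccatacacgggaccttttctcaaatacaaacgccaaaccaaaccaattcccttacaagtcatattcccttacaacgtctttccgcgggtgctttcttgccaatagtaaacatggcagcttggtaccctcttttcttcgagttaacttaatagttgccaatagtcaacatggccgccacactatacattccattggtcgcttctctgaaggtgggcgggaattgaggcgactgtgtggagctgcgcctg
Exosc8, GRCr8 chr2:141087098-141087347, minus strand: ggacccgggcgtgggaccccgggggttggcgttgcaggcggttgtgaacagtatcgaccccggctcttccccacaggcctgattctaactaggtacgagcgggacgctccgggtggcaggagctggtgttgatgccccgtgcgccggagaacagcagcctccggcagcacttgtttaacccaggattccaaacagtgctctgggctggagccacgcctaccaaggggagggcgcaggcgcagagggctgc
Ddx21, GRCr8 chr20:31097239-31097488, minus strand: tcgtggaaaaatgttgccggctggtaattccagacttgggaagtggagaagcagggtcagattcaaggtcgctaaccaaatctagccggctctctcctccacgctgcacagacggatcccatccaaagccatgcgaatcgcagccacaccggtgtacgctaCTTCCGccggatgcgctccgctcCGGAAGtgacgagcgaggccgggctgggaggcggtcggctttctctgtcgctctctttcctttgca
Utp20, GRCr8 chr7:25102850-25103099, minus strand: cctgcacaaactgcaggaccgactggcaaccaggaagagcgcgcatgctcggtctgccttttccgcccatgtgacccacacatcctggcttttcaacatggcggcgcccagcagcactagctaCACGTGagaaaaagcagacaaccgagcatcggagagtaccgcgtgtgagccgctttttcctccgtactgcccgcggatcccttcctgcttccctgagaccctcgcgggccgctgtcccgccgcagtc
CGGAAG on either strand was present upstream of Fbl, Nop10, Polr1c and Ddx21 and was not found in these letters upstream of Exosc2, Exosc8 and Utp20. CACGTG was present in the printed letters of Utp20 and not in those of the others, and a CACGTG of Fbl began at base 22 after its start. Promoters were matched for 60 member symbols. In the 250 upstream bases, CGGAAG on either strand stood in 33 of the 60 (55.0%), against 29.7% of the promoters of tested genes. CACGTG, a palindrome that does not overlap CGGAAG, stood in 16 of the 60 (26.7%) when the 50 bases after the start were added, against 9.79% of the promoters of tested genes. In the 250 upstream bases alone it stood in 9 of the 60 (15%), against 8.46%. CGGAAG was chosen after the sequences had been seen. A match of letters is a description and not a binding site.

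Library totals ran from 12729187 to 16911050 counts, and 3 counts corresponded to 0.177 to 0.236 CPM (counts scaled to library size). The defining markers of endothelial cells summed to 0.07 to 0.33 FPKM and those of Schwann cells to at most 1.49 FPKM, and the 7 macrophage markers to 21.3 to 22.2 FPKM in PDGF-BB+PTUPB, 16.7 to 18.4 FPKM in PDGF-BB and 15.4 to 24.1 FPKM in Control libraries. Of these 7, Cd14 and Cd68 passed the expression filter and Cd14 was called higher with PTUPB (log2 fold change 0.47 ± 0.13, edgeR adjusted p = 0.0304), while Ptprc and C1qa were at 0. In the same libraries the 8 smooth muscle markers summed to 1717 to 2517 FPKM. Control library 2 and PDGF-BB library 3 stood apart from their groups, in that longer genes read lower there (Spearman correlation across genes, between deviation from the group and exonic length, -0.389 and -0.381). Control library 1 (0.348) and PDGF-BB library 2 (0.350) showed the opposite trend. Members differ in length from 588 to 8824 bases, so values with that trend removed, or without Control library 2 and PDGF-BB library 3, are given wherever they change a call.

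The levels of the members spanned a wide range. Npm1 (nucleophosmin, a chaperone of the granular nucleolar layer) was the most abundant, at 376 ± 22.7 FPKM in PDGF-BB+PTUPB, 416 ± 27.7 in PDGF-BB and 322 ± 51.7 in Control cells (SD, n = 3 each). Ncl (nucleolin, which binds the ribosomal RNA precursor) followed at 208 ± 4.31 FPKM in PDGF-BB+PTUPB, 244 ± 34.9 in PDGF-BB and 177 ± 9.06 in Control cells. The next by mean FPKM over all libraries were Nop53 (65.4), Polr1d (48.5), Nop10 (46.4), Fbl (44.8) and Pes1 (40.4), and the ranges of neighbours in this order overlapped over the 9 libraries. The order differed between groups: in PDGF-BB cells Fbl (61.2 ± 8.63 FPKM) and Nop10 (58.5 ± 5.20 FPKM) averaged more than Nop53 (55.0 ± 4.02 FPKM). The median tested member had 13.0 FPKM, against 11.0 for all tested genes. The summed FPKM of the 65 members was 1499 to 1550 in PDGF-BB+PTUPB, 1699 to 1726 in PDGF-BB and 1340 to 1519 in Control libraries, and the PDGF-BB libraries did not overlap with either other group.

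Setting PDGF-BB against Control cells asks how these genes responded to the mitogen. The response was small and split: 10 of the 62 tested members rose (16.1%) and 4 fell (6.45%), at an edgeR quasi-likelihood Benjamini-Hochberg adjusted p under 0.05, while 17.3% of all tested genes rose and 15.8% fell (33.2% either way). The share that rose was thus near the share among all genes, and the share that fell was below it. The median log2 fold change of the tested members was 0.10, against -0.02 for all tested genes. A positive value was found for 41 of 62 members and for 5375 of all 11197 tested genes. In 24 members (38.7%) all 3 PDGF-BB libraries lay above all 3 Control libraries in FPKM, as they did for 27.9% of all tested genes, and in 4 (6.45%) all 3 lay below, against 16.7%. Only 3 members had a fitted fold of over 2 in either direction, Exosc8, Nol8 and Nhp2, and Nhp2 did not pass the test. In these bulk libraries a change in the share of a kind of cell and a change in RNA per cell cannot be told apart.

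**Figure D1:**
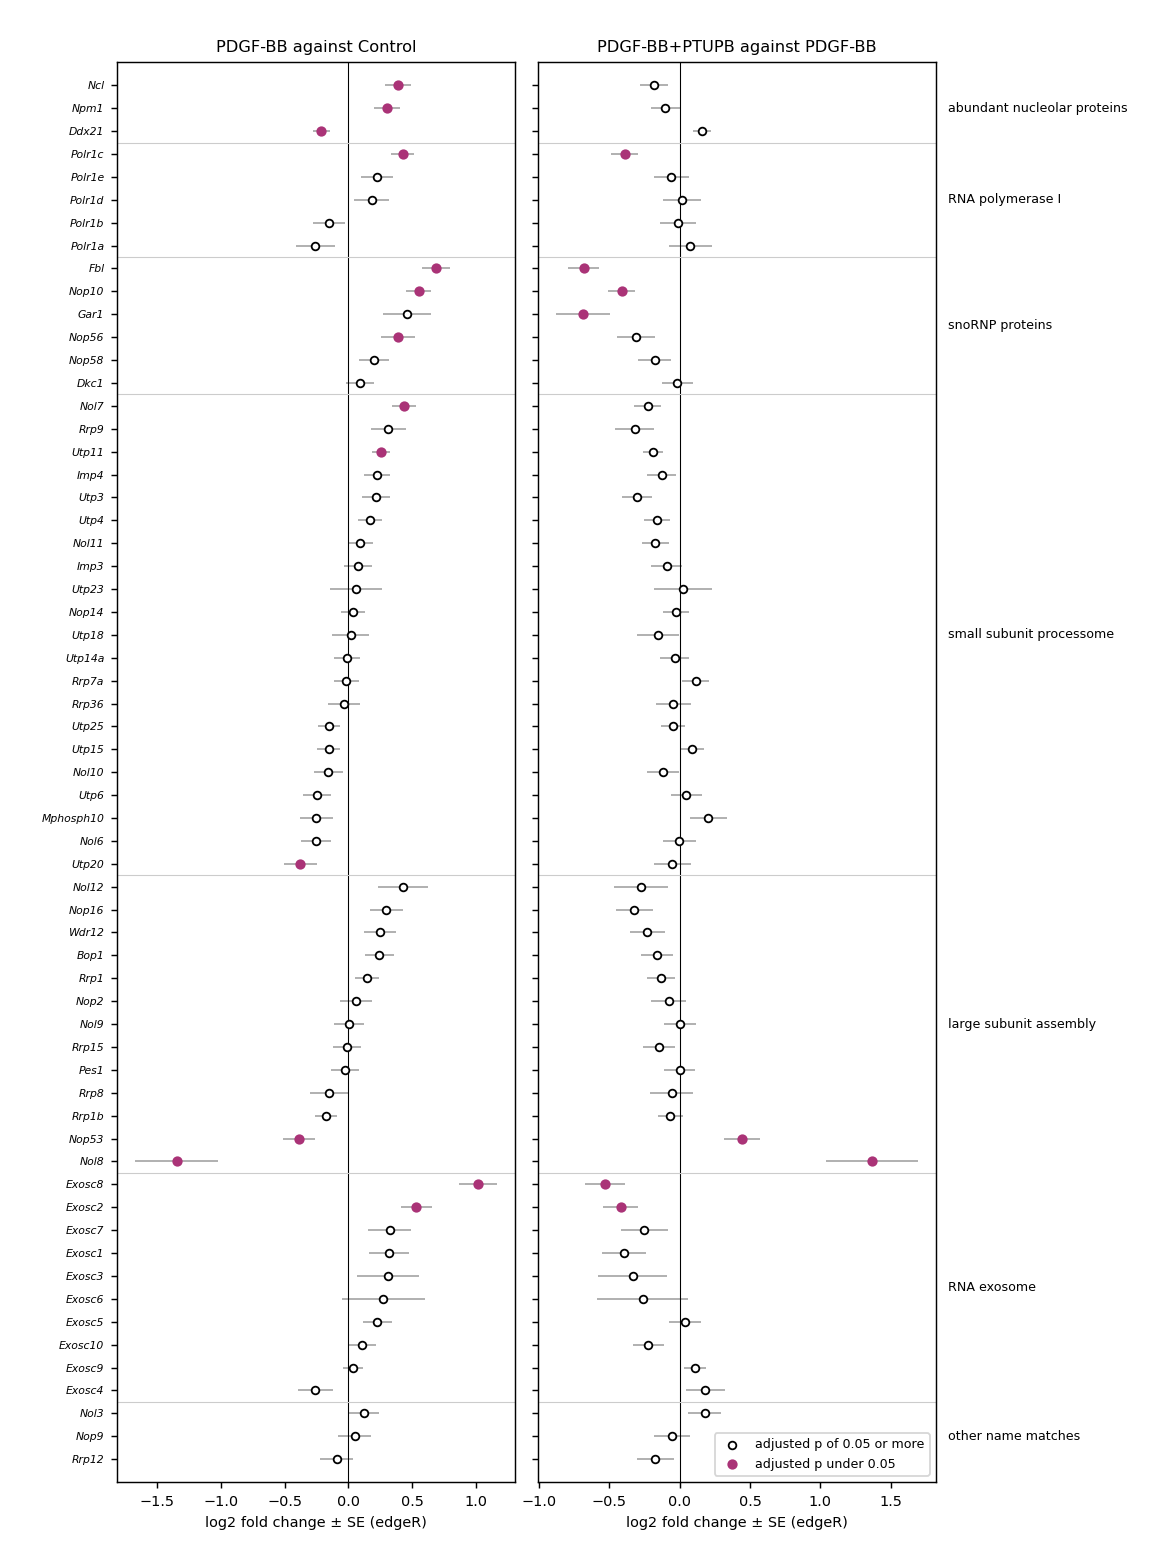
Fitted log2 fold change ± SE (horizontal axis, edgeR) of 61 tested members, one per row and grouped by role, for PDGF-BB against Control (left) and PDGF-BB+PTUPB against PDGF-BB (right). Filled points passed an adjusted p of 0.05; the snoRNP and exosome rows lie mostly right of 0 on the left and left of 0 on the right. Nhp2, whose counts were uneven within groups, is left out. Both panels use the same PDGF-BB libraries.

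Of the snoRNP proteins, all 7 tested members had a positive log2 fold change in PDGF-BB against Control cells, with a median of 0.46. Of these 7, 3 rose (42.9%), against 17.3% of all tested genes. Without Nhp2, whose counts were uneven within groups, the values ran from 0.09 to 0.69 with a median of 0.42. Fbl (ENSRNOG00000019229) encodes fibrillarin, the methyltransferase of the box C/D particles. It had 56.5, 56.0 and 71.2 FPKM in the PDGF-BB libraries, against 33.6, 37.6 and 37.6 FPKM in the Control libraries. Every PDGF-BB library was higher than every Control library, with a log2 fold change of 0.69 ± 0.11 (SE; edgeR adjusted p = 0.00113). Nop10 (ENSRNOG00000005184), a small core protein of the H/ACA particles that direct pseudouridylation, had 56.3, 54.8 and 64.5 FPKM with PDGF-BB and 33.6, 42.1 and 38.3 FPKM in Control cells. The groups did not overlap, and the log2 fold change was 0.55 ± 0.10 (edgeR adjusted p = 0.00197). Nop56 (ENSRNOG00000007128), a scaffold protein of the box C/D particles, had 26.3, 24.2 and 33.3 FPKM with PDGF-BB and 22.4, 18.6 and 20.1 FPKM in Control cells. It passed narrowly, with a log2 fold change of 0.39 ± 0.13 and an edgeR adjusted p of 0.0491. Its partner Nop58 (0.20 ± 0.12, edgeR adjusted p = 0.220), the pseudouridine synthase gene Dkc1 (0.09 ± 0.11, 0.549) and the H/ACA protein gene Gar1 (0.46 ± 0.19, 0.0865) did not pass. The summed FPKM of the 7 snoRNP genes was 222 to 250.2 in PDGF-BB and 159 to 167 in Control libraries.

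Of the 10 tested subunits of the RNA exosome, the complex that degrades and trims RNA from its 3′ end, 9 had a positive log2 fold change. Calls higher were made for 2 of the 10 (20%), against 17.3% of all tested genes. Exosc8 (ENSRNOG00000051623), a subunit of the ring, had 5.78, 5.89 and 6.25 FPKM in PDGF-BB libraries and 3.08, 3.02 and 2.35 FPKM in Control libraries. The lowest PDGF-BB library was far above the highest Control library, and the log2 fold change of 1.02 ± 0.15, a fold of 2.02, was the largest rise among the called members (edgeR adjusted p = 6.45e-04). Exosc2 (ENSRNOG00000009245), an RNA-binding subunit of the cap, had 6.12, 5.61 and 6.50 FPKM with PDGF-BB and 3.54, 4.63 and 3.83 FPKM in Control cells. The groups did not overlap (log2 fold change 0.53 ± 0.12, edgeR adjusted p = 0.00800). Exosc10, the nuclease that joins the complex in the nucleolus and the highest of the group by mean FPKM over all libraries, had 16.8 ± 2.29 FPKM with PDGF-BB and 14.9 ± 1.23 FPKM in Control cells and did not pass (0.11 ± 0.11). Exosc8 overlaps the gene Supt20h on the opposite strand, and the strand used in counting is not given in the sources used here.

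Among the abundant nucleolar proteins, the genes of nucleolin and nucleophosmin rose and that of the helicase Ddx21 fell. Ncl (ENSRNOG00000018273) had 258, 271 and 205 FPKM in PDGF-BB libraries, against 185, 179.6 and 167 FPKM in Control libraries. The third PDGF-BB library was well below the other two and still above all Control libraries (log2 fold change 0.39 ± 0.10, edgeR adjusted p = 0.0129). Npm1 (ENSRNOG00000004616) had 426, 438 and 385 FPKM with PDGF-BB and 294, 381 and 289.6 FPKM in Control cells. Its second Control library lay just below its lowest PDGF-BB library, and the log2 fold change was 0.30 ± 0.10 (edgeR adjusted p = 0.0483). Ddx21 (ENSRNOG00000043099), an RNA helicase of ribosomal RNA transcription and processing, had 29.5, 28.6 and 29.1 FPKM with PDGF-BB and 32.1, 33.2 and 30.9 FPKM in Control cells. The groups did not overlap but the change was the smallest of all that passed, at -0.21 ± 0.07 (edgeR adjusted p = 0.0308).

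Of the 5 tested RNA polymerase I subunits, 1 rose (20%), against 17.3% of all tested genes. Polr1c (ENSRNOG00000019079), a subunit that RNA polymerase III also uses, had 32.5, 31.2 and 37.1 FPKM with PDGF-BB and 21.8, 25.8 and 24.0 FPKM in Control cells. The groups did not overlap, and the log2 fold change was 0.43 ± 0.09 (edgeR adjusted p = 0.00584). Polr1a, the largest subunit, differed by -0.26 ± 0.15 (edgeR adjusted p = 0.213) and the second largest, Polr1b, by -0.15 ± 0.13 (0.374). Polr1d, like Polr1c shared with RNA polymerase III and the most abundant of the 5, differed by 0.18 ± 0.14 (0.326), but without Control library 2 it differed by 0.37 with an edgeR adjusted p of 0.0171, and over the 21 alternatives its adjusted p ran to 0.918.

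The small subunit processome is the large particle that assembles on the growing precursor. Of its 21 tested members 2 rose (9.52%) and 1 fell (4.76%), against 17.3% and 15.8% of all tested genes. A positive value was found for 11 of the 21, with a median log2 fold change of 0.02. Nol7 (ENSRNOG00000017904), a nucleolar protein of this assembly in human cells, had 17.6, 16.1 and 16.2 FPKM with PDGF-BB and 11.2, 12.6 and 11.2 FPKM in Control cells. Utp11 (ENSRNOG00000007174), the most abundant member of the group, had 33.7, 35.6 and 34.6 FPKM with PDGF-BB and 27.0, 27.8 and 27.9 FPKM in Control cells. In both genes every PDGF-BB library was above every Control library, with log2 fold changes of 0.44 ± 0.10 (edgeR adjusted p = 0.00615) and 0.26 ± 0.07 (0.0169). Utp20 (ENSRNOG00000005823), a very large scaffold protein and the longest member, had 3.94, 4.35 and 3.44 FPKM with PDGF-BB and 5.49, 4.06 and 4.97 FPKM in Control cells. Its second PDGF-BB library exceeded its second Control library, so the groups overlapped although the gene passed (log2 fold change -0.38 ± 0.13, edgeR adjusted p = 0.0468).

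Of the 13 tested large subunit assembly factors 0 rose and 2 fell (15.4%), against 17.3% and 15.8% of all tested genes. A positive value was found for 7 of the 13, and the median was 0.00. Nop53 (ENSRNOG00000013023), which in yeast recruits the exosome to the pre-ribosome, had 57.6, 50.3 and 56.9 FPKM with PDGF-BB and 57.8, 85.8 and 62.2 FPKM in Control cells. The first PDGF-BB and the first Control library were almost equal, and the fall of -0.39 ± 0.13 passed narrowly (edgeR adjusted p = 0.0404). Nol8 (ENSRNOG00000046968), a nucleolar protein, was lowly expressed, with 0.320, 0.570 and 0.500 FPKM with PDGF-BB and 1.65, 1.05 and 0.690 FPKM in Control cells. All PDGF-BB libraries were below all Control libraries, which themselves differed by more than 2 times, and the log2 fold change was -1.35 ± 0.33 (edgeR adjusted p = 0.0102). Pes1, Bop1 and Wdr12, which form a complex needed for large subunit assembly, differed by -0.03 ± 0.11, 0.24 ± 0.11 and 0.25 ± 0.12 and did not pass (edgeR adjusted p = 0.863, 0.133 and 0.154).

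**Figure D2:**
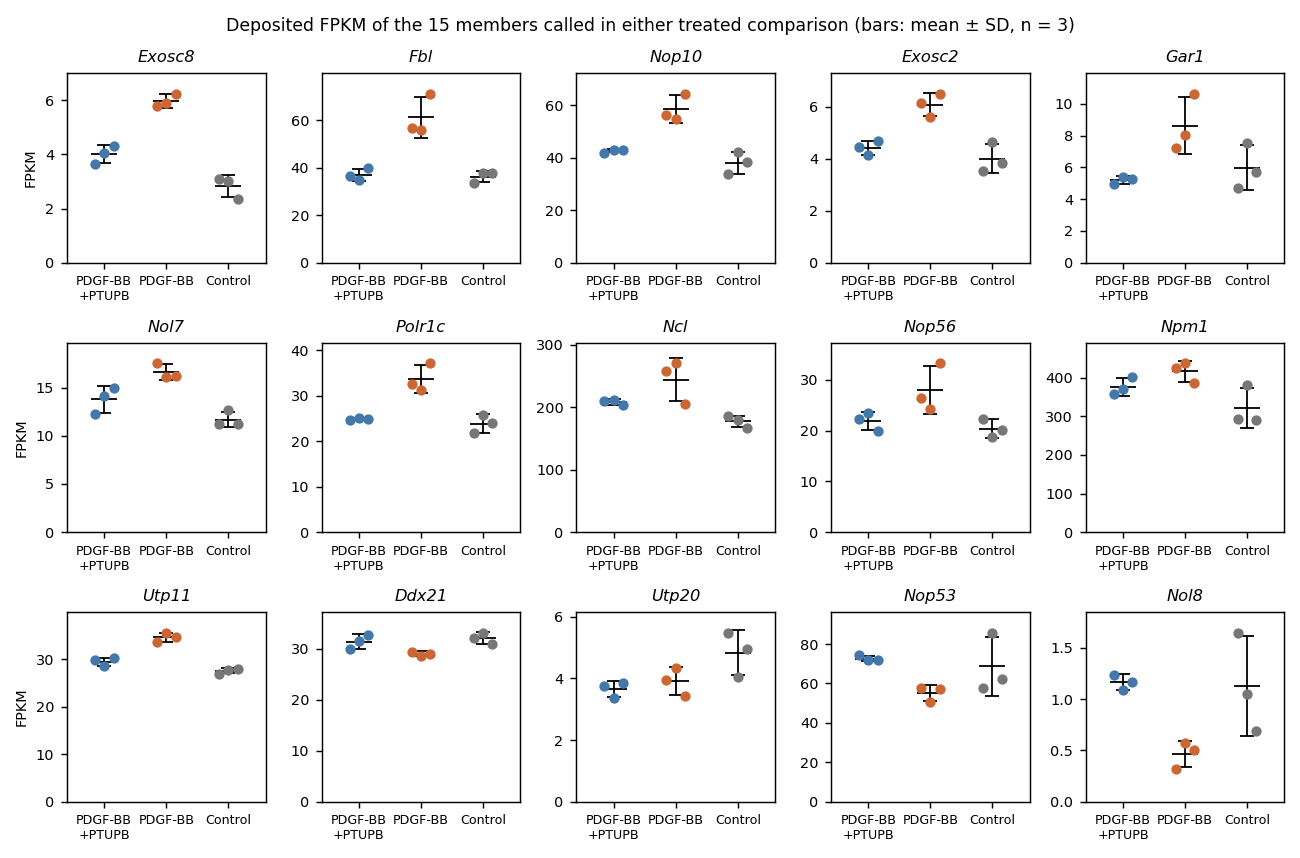
Deposited FPKM (vertical axis, from 0) in each library of the 15 members that passed the test in PDGF-BB against Control or in PDGF-BB+PTUPB against PDGF-BB. Points are libraries and bars are mean ± SD of 3; Fbl, Nop10, Polr1c, Exosc2 and Exosc8 are highest in PDGF-BB cells, and Nol8 and Nop53 are lowest there.

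The calls differed in how firmly they held. Those of Exosc2, Exosc8, Fbl, Nol7, Nop10 and Polr1c held under all 21 alternative settings tried and that of Nol8 under the 20 that kept the gene. Utp11 kept its call under all 9 fits that left out 1 library and lost it with the length trend removed (log2 fold change 0.13, edgeR adjusted p = 0.213). Over the 21 alternatives (edgeR, DESeq2 or limma) its adjusted p ran from 0.00322 to 0.273. Ncl lost its call without Control library 3 or without PDGF-BB library 1 (edgeR adjusted p = 0.0548 and 0.0513). Its adjusted p over the same 21 alternatives ran from 4.60e-04 to 0.0548. The remaining 5 calls were lost in most of the fits that left out 1 library. Of the 9 fits that left out 1 library, Npm1 kept its call in 2 (without Control 2 or PDGF-BB 3), Nop56 in 2 (without Control 1 or PDGF-BB 2), Nop53 in 2 (without Control 1 or Control 3), Ddx21 in 3 (without PDGF-BB 3, PDGF-BB+PTUPB 1 or PDGF-BB+PTUPB 3) and Utp20 in 1 (without Control 2). The value of Nop53 was -0.21 without Control library 2, and that of Nop56 was 0.24 without PDGF-BB library 3. The lowest and highest adjusted p over all alternatives (edgeR, DESeq2 or limma) were 4.96e-04 and 0.166 for Npm1 and 0.0201 and 0.258 for Nop56. They were 0.00836 and 0.124 for Nop53, 0.0162 and 0.560 for Ddx21, and 0.00783 and 0.893 for Utp20. Of the 48 members that did not pass, 40 had a 95% confidence interval of the log2 fold change within -0.6 to 0.6. That range holds the values of called members, such as 0.26 for Utp11 and 0.55 for Nop10. It does not exclude changes of such sizes.

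The fold changes of the members followed their length. Across the 62 tested members, the Spearman correlation of the log2 fold change in PDGF-BB against Control with exonic length was -0.601, against -0.292 across all 11197 tested genes. Genes share libraries and are not independent replicates, so these are descriptions. Of the 17 members shorter than 1500 bases, 16 had a positive value with a median of 0.30, and of the 19 of at least 2500 bases, 5 had a positive value with a median of -0.15. Both limits were chosen after the data had been seen. The length trend of a library was fitted to its deviation from the mean of all 9 libraries, without regard to group. Its removal therefore also took out any difference between groups that followed length. A correlation near 0 across all genes was set by that step. With the length trend of each library removed, the correlation was -0.247 across members and 0.01 across all genes. Of the 17 short members 14 were positive (median 0.13), and of the 19 long ones 8 (median -0.02). The long genes Utp20 and Ddx21 then differed by -0.02 and -0.07 and lost their calls (edgeR adjusted p = 0.883 and 0.521), and so did Npm1 (0.22, edgeR adjusted p = 0.109) and Nop56 (0.34, 0.0695), while Fbl, Nop10, Polr1c, Exosc8 and Exosc2 kept theirs. When Control library 2 and PDGF-BB library 3 were left out instead, the correlation was -0.627 across members and -0.286 across all genes, with medians of 0.23 for the short members and -0.20 for the long ones. In that fit edgeR called 12 members higher, Gar1, Nol3 and Polr1d newly among them and Nop56 no longer, and 8 lower, with Nol6, Polr1a, Polr1b and Utp6 newly among them. The cause of the length trend was not tested.

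**Figure D3:**
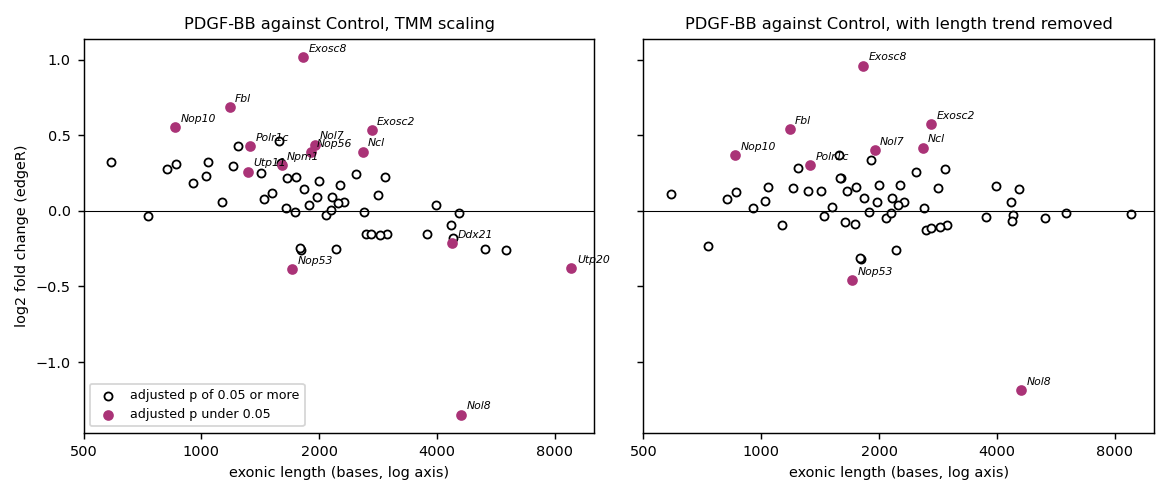
Log2 fold change of 61 tested members in PDGF-BB against Control (vertical axis) by exonic length in bases (horizontal log axis), before (left) and after (right) the length trend of each library was removed. Filled, named points passed an adjusted p of 0.05; the downward slope on the left is weaker on the right, where Utp20, Ddx21, Utp11, Npm1 and Nop56 are no longer filled. Nhp2 is left out.

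Cells given PTUPB before PDGF-BB were then set against cells given PDGF-BB alone, to ask what the inhibitor changed. Of the 62 tested members 6 fell (9.68%) and 2 rose (3.23%), whereas 10% of all tested genes fell and 8.28% rose (18.3% either way). The median log2 fold change was -0.10 for the members and 0.01 for all tested genes. A positive value was found for 17 of the 62 members and for 5687 of all 11197 tested genes. In 22 members (35.5%) every PDGF-BB+PTUPB library was below every PDGF-BB library, against 25.2% of all tested genes, and in 5 (8.06%) every one was above, against 16.2%. The comparison shares the PDGF-BB libraries with that of PDGF-BB and Control, so a library that reads high there pushes the 2 fold changes of a gene in opposite directions.

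The 6 members that fell were snoRNP, exosome and polymerase genes. Fbl had 36.6, 34.8 and 39.8 FPKM in PDGF-BB+PTUPB libraries, against 56.5, 56.0 and 71.2 FPKM in PDGF-BB libraries. Its log2 fold change was -0.68 ± 0.11 (edgeR adjusted p = 0.00326), and the call held under all 21 alternatives. Nop10 had 42.0, 42.8 and 43.1 FPKM with PTUPB and 56.3, 54.8 and 64.5 FPKM with PDGF-BB alone (-0.41 ± 0.10, edgeR adjusted p = 0.0167). Its libraries with PTUPB were within 2 FPKM of each other and all below those with PDGF-BB alone. Gar1 (ENSRNOG00000061146), a protein of the mature H/ACA particles, had 4.94, 5.41 and 5.29 FPKM with PTUPB and 7.21, 8.06 and 10.7 FPKM with PDGF-BB alone. The groups did not overlap, and the log2 fold change was -0.69 ± 0.19 (edgeR adjusted p = 0.0326). Polr1c had 24.6, 25.2 and 24.8 FPKM with PTUPB and 32.5, 31.2 and 37.1 FPKM with PDGF-BB alone (-0.39 ± 0.09, edgeR adjusted p = 0.0167). Exosc8 had 3.65, 4.07 and 4.31 FPKM with PTUPB and 5.78, 5.89 and 6.25 FPKM with PDGF-BB alone (-0.53 ± 0.14, edgeR adjusted p = 0.0298). Exosc2 had 4.44, 4.13 and 4.67 FPKM with PTUPB and 6.12, 5.61 and 6.50 FPKM with PDGF-BB alone (-0.42 ± 0.12, edgeR adjusted p = 0.0396). In these 3 genes too, every library with PTUPB lay below every library with PDGF-BB alone.

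The 2 members that rose with PTUPB were those of the large subunit list that had fallen with PDGF-BB. Nol8 had 1.24, 1.09 and 1.17 FPKM with PTUPB and 0.320, 0.570 and 0.500 FPKM with PDGF-BB alone, a log2 fold change of 1.37 ± 0.33 (edgeR adjusted p = 0.0177). Nop53 had 74.2, 71.7 and 71.9 FPKM with PTUPB and 57.6, 50.3 and 56.9 FPKM with PDGF-BB alone, a log2 fold change of 0.45 ± 0.13 (edgeR adjusted p = 0.0365). In both genes the groups did not overlap. The small subunit processome had 0 called members of 21, with a median of -0.05, while 18.3% of all tested genes were called either way. Utp11 differed by -0.19 ± 0.07 and Nol7 by -0.23 ± 0.10 (edgeR adjusted p = 0.0888 and 0.131). The abundant proteins did not pass either: Ncl differed by -0.19 ± 0.10, Npm1 by -0.10 ± 0.10 and Ddx21 by 0.16 ± 0.07 (edgeR adjusted p = 0.228, 0.547 and 0.125). Nucleolin was called lower when PDGF-BB library 3 was left out (-0.29, edgeR adjusted p = 0.0234). Over the 21 alternatives (edgeR, DESeq2 or limma) its adjusted p ran from 0.00792 to 0.450. Utp20, at 3.77, 3.36 and 3.85 FPKM with PTUPB and 3.94, 4.35 and 3.44 FPKM with PDGF-BB alone, differed by -0.05 ± 0.13 (edgeR adjusted p = 0.815).

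Seen over both comparisons, 5 members rose with PDGF-BB and fell with PTUPB (Exosc2, Exosc8, Polr1c, Fbl and Nop10), and 2 fell and then rose (Nol8 and Nop53). A call in the first comparison only was a rise for 5 (Ncl, Npm1, Nol7, Utp11 and Nop56) and a fall for 2 (Ddx21 and Utp20). Gar1 was called in the second only and 47 were called in neither. The share of all tested genes with each pattern was not counted, so these counts describe the members only. Both comparisons use the same PDGF-BB libraries. Fbl apart, each call of the second comparison was lost in at least 1 of the fits that left out 1 library. The number of genes called lower over the whole table also changed in such fits. It was 1121 in the main fit and 540 to 1313 over all fits that left out 1 library. Without PDGF-BB+PTUPB library 1, 2 or 3 it was 540, 614 and 716. Why calls were lost was not tested. Polr1c lost its call without each of these libraries, at -0.39, -0.40 and -0.39, against -0.39 in the main fit. Without PDGF-BB+PTUPB library 1, of the 6 members that fell only Fbl kept its call, and so it was without PDGF-BB+PTUPB library 2. Without library 3 of that group Fbl and Nop10 kept theirs. The fit without PDGF-BB library 1 called 4 of the 6 and 0 of the 2 that had risen. With Control library 2 and PDGF-BB library 3 both left out, Exosc8 lost its call (-0.49, edgeR adjusted p = 0.0536) and Ncl (-0.29, 0.00792) and Nop58 were called lower. Exosc8 and Nop53 lost their calls without PDGF-BB library 2, Exosc2, Exosc8 and Gar1 without PDGF-BB library 3, Exosc2 without Control library 3, Nop53 without any 1 of the PDGF-BB+PTUPB libraries and Nol8 without the first of them. Adjusted p over all alternatives (edgeR in the fits named here) reached 0.138 for Exosc2, 0.115 for Exosc8, 0.112 for Gar1, 0.0649 for Polr1c, 0.0664 for Nop10, 0.113 for Nop53 and 0.0619 for Nol8.

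**Figure D4:**
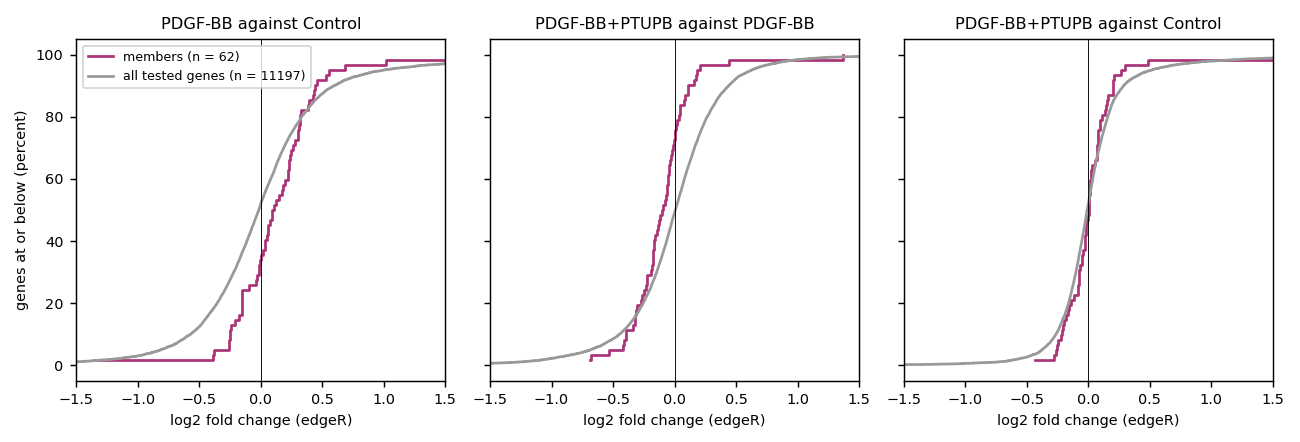
Cumulative share of genes in percent (vertical axis) at or below each log2 fold change (horizontal axis, edgeR, the ends of the axis are clipped) for the 62 tested members and all 11197 tested genes in 3 comparisons. The member curve lies to the right of the other around 0 in PDGF-BB against Control (medians 0.10 and -0.02), to the left in PDGF-BB+PTUPB against PDGF-BB (-0.10 and 0.01), and close to it in PDGF-BB+PTUPB against Control (0.01 and -0.01).

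The comparison of PDGF-BB+PTUPB with Control cells shows where the members stood when both agents were present. edgeR called 0 members higher and 0 lower, of 62, against 1.89% and 0.313% of all tested genes (2.21% either way); 9 members had an unadjusted p under 0.05, and DESeq2 called 0. The median log2 fold change was 0.01 for members and -0.01 for all tested genes. The sizes nevertheless ranged from -0.43 ± 0.13 for Utp20 to 0.48 ± 0.15 for Exosc8, Nhp2 apart. Exosc8, at 3.65, 4.07 and 4.31 FPKM in PDGF-BB+PTUPB and 3.08, 3.02 and 2.35 FPKM in Control libraries, did not overlap between the groups (edgeR adjusted p = 0.169). Utp20, at 3.77, 3.36 and 3.85 FPKM in PDGF-BB+PTUPB and 5.49, 4.06 and 4.97 FPKM in Control libraries, did not overlap either (edgeR adjusted p = 0.153). In all, 9 members (14.5%) lay above Control in every library and 7 (11.3%) below, as 14% and 7.14% of all tested genes did. For Fbl, whose groups overlapped, the difference was 0.01 ± 0.11 with a 95% interval of -0.24 to 0.25, and for Nop10 it was 0.14 ± 0.10 (-0.08 to 0.36). Of the 62 members, 56 had an interval within -0.6 to 0.6, a range that holds changes of sizes called in the other comparisons. Without Control library 2 and PDGF-BB library 3, Nol3, Npm1 and Polr1d were called higher and Polr1a, Utp20 and Utp6 lower.

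Other measures moved with these groups. The 10 proliferation markers, Mki67 and Top2a among them, summed to 148 to 190 FPKM in PDGF-BB+PTUPB, 341 to 414 FPKM in PDGF-BB and 48.9 to 77.4 FPKM in Control libraries, and all 10 rose with PDGF-BB (median log2 fold change 2.28) while 8 fell with PTUPB (-1.12). The 8 adventitial fibroblast markers summed to 1115 to 1297 FPKM in PDGF-BB+PTUPB, 664 to 993 in PDGF-BB and 1117 to 1733 in Control libraries, and of 7 tested 5 fell with PDGF-BB and 5 rose with PTUPB. Their part in the results on the members was not tested. The summed FPKM of the 6 snoRNP genes other than Nhp2 was 167 to 174 in PDGF-BB+PTUPB, 215 to 249 in PDGF-BB and 158 to 166 in Control libraries. The sums of all members and of the polymerase I, processome, large subunit and exosome genes overlapped between PDGF-BB+PTUPB and Control libraries. Those of the snoRNP genes, the abundant nucleolar proteins and the other name matches lay above Control in every PDGF-BB+PTUPB library. The abundant proteins summed to 597 to 637 FPKM against 488 to 594, and the other name matches to 50.7 to 53.6 FPKM against 41.3 to 50.2. Nol3, matched by name only, made up most of the latter sum (35.8 ± 2.09 FPKM against 28.7 ± 5.24). The nearest libraries were close in both sums, and for the snoRNP genes without Nhp2 they were at 166.76 and 166.25 FPKM. These gaps were not set beside those of other gene sums.

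Nhp2 (ENSRNOG00000004247), the remaining H/ACA core protein, was uneven within groups. It had 6, 213 and 3 counts in the PDGF-BB+PTUPB libraries, 157, 8 and 10 in the PDGF-BB libraries and 3, 5 and 2 in the Control libraries. PDGF-BB+PTUPB library 2 and PDGF-BB library 1 thus held almost all its counts. Its fitted log2 fold change in PDGF-BB against Control, 4.29 ± 1.81, did not pass (edgeR adjusted p = 0.0944). A row outside the name rule, LOC103690013, which the file describes as the same subunit and gives the same orthology number, had 11 counts in PDGF-BB+PTUPB library 2, 18 in PDGF-BB library 1 and 0 in the other 7 libraries. How reads were divided between such rows is not given in the sources used here. In all, 15 rows outside the rule shared an orthology number with 10 members, and 3 of them exceeded 100 counts in a library, next to Ncl, Ddx21 and Rrp7a. The row that shares the number of Ncl, AC127920.1, was called higher with PDGF-BB (log2 fold change 0.40, edgeR adjusted p = 0.0210). It was called lower with PTUPB (-0.39, edgeR adjusted p = 0.0392). The rows that share the numbers of Ddx21 and Rrp7a were called in neither comparison.

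**Figure D5:**
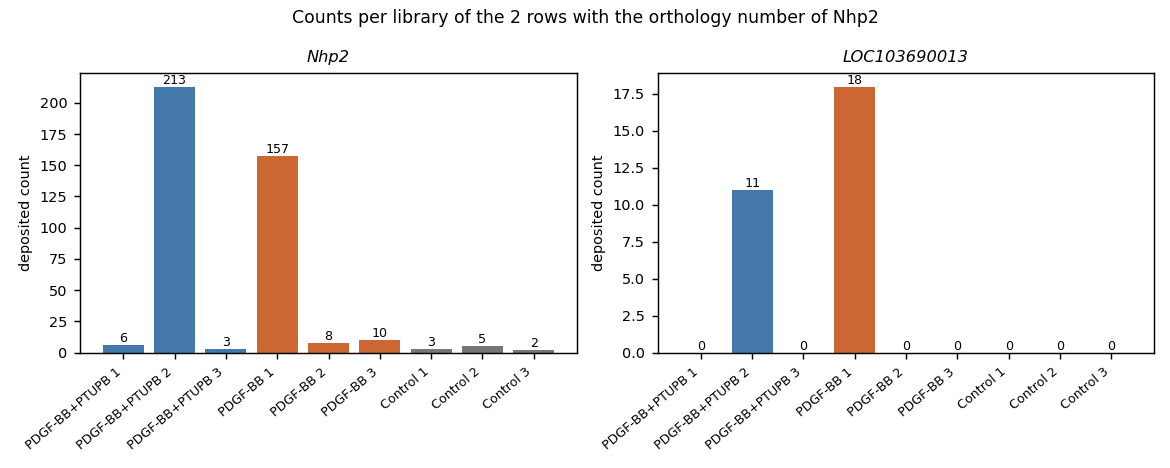
Deposited counts (vertical axes, from 0, on different scales) of Nhp2 (left) and of LOC103690013 (right), 2 rows with the same orthology number, in each of the 9 libraries. The same 2 libraries, PDGF-BB+PTUPB 2 and PDGF-BB 1, are high in both panels.

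Genes of the same pathway outside the name rule were read from 4 lists, to be read against the 17.3% of all tested genes that rose and 15.8% that fell with PDGF-BB, and the 8.28% that rose and 10% that fell with PTUPB. Of 16 tested regulators of RNA polymerase I transcription and the nucleolus, 1 (6.25%) rose with PDGF-BB, Znrd1, a polymerase I subunit (log2 fold change 0.50 ± 0.16, edgeR adjusted p = 0.0393), and 0 fell. Myc, the transcription factor known to drive ribosome synthesis, had 18.5 ± 1.94 FPKM in PDGF-BB+PTUPB, 17.5 ± 1.05 in PDGF-BB and 15.3 ± 2.83 in Control cells, a difference of 0.12 ± 0.13 between PDGF-BB and Control (edgeR adjusted p = 0.501). Ubtf, the factor that binds ribosomal DNA, differed by 0.07 ± 0.08 and Rrn3, which recruits the polymerase, by -0.10 ± 0.14 (edgeR adjusted p = 0.520 and 0.609).

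Further assembly factors of the small subunit gave 3 rises (9.68%) and 1 fall (3.23%) of 31 with PDGF-BB, both below the shares among all tested genes. Emg1, a methyltransferase of the small subunit RNA, had 10.1 ± 0.481 FPKM in PDGF-BB+PTUPB, 18.9 ± 3.16 in PDGF-BB and 9.72 ± 1.15 in Control cells. It rose by 0.89 ± 0.14 with PDGF-BB (edgeR adjusted p = 8.88e-04) and its log2 fold change with PTUPB was -0.86 ± 0.14 (0.00308). Rcl1, a processing factor of the small subunit, went the other way, at -0.72 ± 0.17 with PDGF-BB and 0.65 ± 0.17 with PTUPB (edgeR adjusted p = 0.00930 and 0.0266). Ngdn rose with PDGF-BB (0.39 ± 0.12) and Tsr1 fell with PTUPB (-0.27 ± 0.07). Of 38 large subunit factors 5 (13.2%) rose and 0 fell with PDGF-BB, again below those shares, with the smallest p for Wdr18 (0.58 ± 0.10), Las1l (0.44 ± 0.09) and Mrto4 (0.52 ± 0.11). With PTUPB 5 of the 38 (13.2%) fell, led by Pak1ip1 (-0.59 ± 0.13), and 0 rose. Las1l is a nuclease that cuts a spacer of the precursor, and Mrto4 is an assembly factor that holds the place of a stalk protein. Of 13 genes listed as exosome cofactors, Mpp6 (0.63 ± 0.13) and Tent4a (0.27 ± 0.08) rose with PDGF-BB and Mpp6 fell with PTUPB (-0.44 ± 0.13). The rat symbol Mpp6 stands for a membrane scaffold protein, so its calls are not those of a cofactor. The exosome cofactor MPP6 is the product of Mphosph6, also listed. Mphosph6 differed by 0.20 ± 0.13 with PDGF-BB and -0.08 ± 0.13 with PTUPB and did not pass (edgeR adjusted p = 0.246 and 0.724). Between PDGF-BB+PTUPB and Control cells 0 genes of the 4 lists were called in either direction.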

How the data were processed

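Poly(A) RNA of 9 libraries was primed at random and sequenced paired-end, per the labels' protocols. Per the submitters' processing notes, the tools were cutadapt 1.9.1, HISAT2 2.0.1 and HTSeq 0.6.1, and the build was mm10, a mouse build, although every gene identifier in the table is a rat Ensembl identifier. The table deposited by the authors gives an expected count per gene and library, not whole for 978 genes, which were rounded. It also gives FPKM, which the authors computed per exonic length; FPKM recomputed from the counts differed by at most 0.005. Strand and gene annotation are not given in the sources used here.

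The 11197 genes that reached 1 FPKM in 3 or more of the 9 libraries were fitted in 1 model with edgeR 4.0.16 in R 4.3.3 (scaling by TMM, test by quasi-likelihood F, no term besides group, 6 residual degrees of freedom, biological coefficient of variation 0.137). Calls are two-sided at a Benjamini-Hochberg adjusted p under 0.05 over all tested genes. SE is the log2 fold change divided by the square root of F. Levels and overlaps between groups use FPKM. The fits were tested on simulated data. Alternatives were DESeq2 1.42.0, limma 3.58.1 on log2(FPKM + 0.1) and log2(FPKM + 1), other scalings, filters and designs, a length trend offset and left-out libraries. The members and gene lists were chosen with earlier results of these data known. Named were called members, Ncl, Ddx21, Utp20, Npm1, Fbl, the most abundant member of each role and up to 3 called genes of each further list by smallest p; other genes were named after their values were seen. Heatr1, Mdn1, Papd5 and Pecam1 were not analysed here.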

Additional observations from a re-analysis of the deposited data

How the results depend on the processing

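For 44 values of named members, each refitted under up to 21 alternatives, the sign reversed in 19 pairs of value and alternative, all in values that had not passed. In 776 pairs the sign and the call stayed the same, in 109 a call was lost and in 15 a call was gained. The members called lower in PDGF-BB against Control (4) were 1 with scaling by library totals, with either limma fit, with only the groups compared or with the replicate block, 2 with the length trend offset, with the block and that offset or with the stricter FPKM filter, and 8 without both Control 2 and PDGF-BB 3; genes called lower (1772) were 1154 with only the groups compared. Members higher in PDGF-BB+PTUPB against PDGF-BB (2) were 1 with totals, either limma fit, the replicate block or the stricter filter. In PDGF-BB+PTUPB against Control, members higher and lower (0 and 0) were 3 and 3 without both libraries; genes higher (212) were 330 with DESeq2 and 650 without both libraries, and genes lower (35) were 114 and 695, 22 with either limma fit and 23 with the block, with or without the offset.

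With 1 library left out, PDGF-BB against Control gave 1502 to 2030 genes higher and 1268 to 1872 lower, 7 to 13 members higher and 1 to 4 lower, and a member median of 0.06 to 0.17. PDGF-BB+PTUPB against PDGF-BB gave 462 to 1150 and 540 to 1313 genes, 0 to 2 and 1 to 6 members, and -0.18 to -0.04. PDGF-BB+PTUPB against Control gave 90 to 271 and 3 to 147 genes, 0 to 1 and 0 to 1 members, and -0.03 to 0.01.

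Signs turned as follows. Exosc10, PDGF-BB against Control, was -0.027 without both libraries and -0.011 to 0.21 with 1 library left out. In PDGF-BB+PTUPB against PDGF-BB, Polr1d was -0.029 with totals and -0.029 and -0.028 with limma at pseudocounts of 0.1 and 1, and with 1 library left out Polr1d was -0.018 to 0.057 and Utp20 -0.13 to 0.0092. In PDGF-BB+PTUPB against Control, Ddx21 was 0.0054 with the length offset and 0.0042 with block and offset, and Fbl was -0.070 and -0.071 with these and -0.0011 with the stricter filter. With 1 library left out Nop53 was -0.041 to 0.24 and Fbl -0.052 to 0.048. The causes were not tested.

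Whether the replicate numbers pair the libraries was not settled. Deviations of same-numbered libraries from their group means correlated at -0.238 to 0.177, and such values, from means of 3 libraries, cannot exclude a pairing. With the replicate block 8 and 1 members were called higher and lower in PDGF-BB against Control, 1 and 4 in PDGF-BB+PTUPB against PDGF-BB and 0 and 0 in PDGF-BB+PTUPB against Control. With 3 libraries a group, the 95% interval of an uncalled member reached 0.26 to either side of its log2 fold change in the median. Smaller differences were mostly not detectable. Calls rest on the adjusted p, and larger differences also went uncalled. Examples were 0.46 for Gar1 in PDGF-BB against Control, and 0.48 for Exosc8 and -0.43 for Utp20 in PDGF-BB+PTUPB against Control.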

Other observations

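Spread within a group differed between the groups. The median coefficient of variation of FPKM over the tested members was 5.94% in PDGF-BB+PTUPB, 12.0% in PDGF-BB and 8.19% in Control libraries, and the highest single values were 161% and 147% for Nhp2 in PDGF-BB+PTUPB and PDGF-BB libraries and 47.8% for Exosc6 in Control libraries.

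The spans of 13 members overlap that of another gene in the table. On the opposite strand these were Exosc9 (with Ccna2 and Bbs7), Rrp8 (Ilk), Bop1 (Scx and Mroh1), Rrp7a (Serhl2) and Exosc8 (Supt20h), and Fbl shares its strand with Dyrk1b, which reached at most 5.12 FPKM. Counts that were not whole were found in 3 members, Fbl, Rrp8 and Rrp7a.

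In the deposited annotation, 17 of the 65 members (26.2%) carried the pathway term for ribosome biogenesis in eukaryotes, against 0.688% of all tested genes, and 10 (15.4%) that for RNA degradation, which were the 10 exosome genes.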
